A study of Mus musculus with 4 samples.

Results

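The signals of 34984 probes were compared between activated osteoclasts, taken at 96 h, and pre-osteoclasts, taken at 24 h. These are the probes that the scanner software called well above background on both arrays, out of 60804 with a deposited value. The cells were RAW264.7, a mouse macrophage line that forms osteoclasts in culture, and they were induced with 100 ng/mL RANKL, the ligand that drives osteoclast formation, and 50 ng/mL M-CSF, a growth factor of macrophages, for the time given, so that cells at 0 h had no induction. The series holds 4 arrays analysed here, which the labels name monocyte (0 h), pre-osteoclast (24 h), mature osteoclast (72 h) and activated osteoclast (96 h). Each time point has 1 array of 1 sample of this cell line, so a difference has no replicate check, and no p-value or standard error of a difference was computed. The 24 h and 96 h arrays lie on the same slide, slide 2, and those of 0 h and 72 h on slide 1. All values are deposited log2 signals, and a difference is the 96 h value minus the 24 h value, so that 1 on the log2 scale is 2-fold.

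An osteoclast is a large cell with many nuclei that forms by fusion of macrophage precursors and dissolves bone with acid and proteases. RANKL acts through NF-kappaB and calcium signals on the transcription factor Nfatc1, while interferon signals restrain the process, and mature cells are rich in mitochondria, lysosomal enzymes and actin rings. Long noncoding RNAs (lncRNAs) are transcripts without a long reading frame. They are sorted by their place relative to coding genes, as intergenic, bidirectional (sharing a promoter region on opposite strands), antisense, or overlapping a gene on its own strand.

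Past the 2-fold limit, 1765 probes (5.05%) had the higher signal in activated osteoclasts and 2063 (5.9%) the higher signal in pre-osteoclasts, together 3828 (10.9%). Higher probes made up 46.1% of these (95% Wilson interval 44.5 to 47.7%, which treats probes as independent and covers counting only), but 51.8% of those past 2-fold among brighter probes and 51.9% with no filter, so neither direction prevailed under every choice. The median difference was -0.02 and the median absolute difference 0.31, and 5% of the probes lay below -1.09. Past 4-fold there were 273 higher and 323 lower probes, and past 16-fold 28 in each direction. The lowest difference of all, -13.84, belonged to a probe without a name, ASMM10P004605, with 18.42 at 24 h and 4.58 at 96 h. It read 5.54 at 0 h and 3.87 at 72 h and was printed once, so this difference rests on 1 spot on the 24 h array. For scale, repeated spots of 1 probe on the same array differed with a median SD of 0.07 at 24 h and 0.05 at 96 h, over 15 repeated probes well above background, which covers the printing and scanning of spots and not the culture. Well above background at 96 h only were 5613 probes, and at 24 h only 784. The numbers of probes well above background were 35768 at 24 h and 40597 at 96 h, and the median processed signal was 67.5 and 99.4 intensity units. The part of this gap in signal in the counts was not tested.

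**Figure D1:**
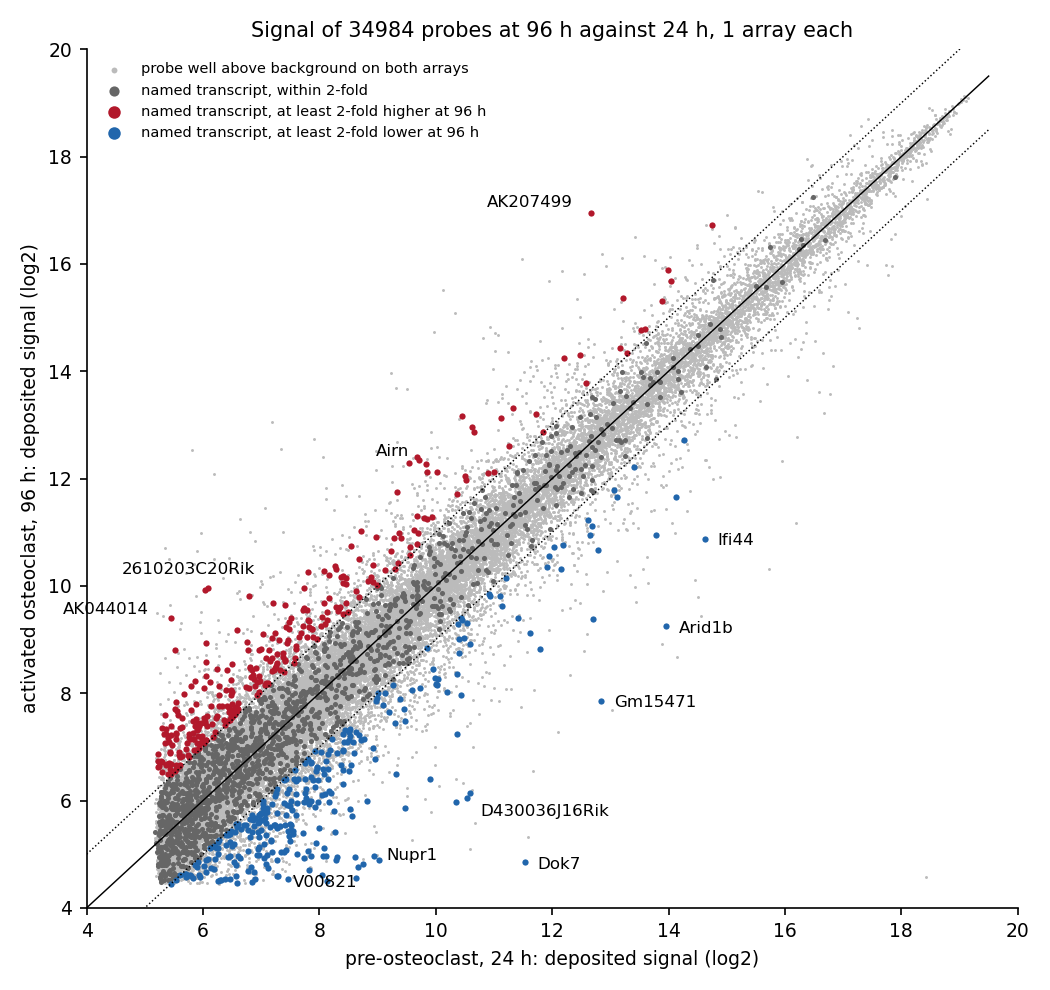
Deposited log2 signal of each of the 34984 probes on the 24 h array (x axis) and the 96 h array (y axis); the solid line marks equal signal and the dotted lines 2-fold. Named transcripts are drawn dark, those at least 2-fold higher at 96 h in red and those at least 2-fold lower in blue; Dok7, with a difference of -6.68, and AK207499, with 4.28, lie farthest out among the labelled ones.

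The files used here pair no coding gene with a probe, so names cover only 3937 probes that the study's lncRNA lists give as differing from 0 h. The copies of these lists used here were shortened for transcripts higher at 96 h and, far more, for those lower at 24 h and at 72 h, and a list of those lower at 96 h was not used here. The copies for transcripts higher at 24 h and at 72 h were not shortened. Named counts and their directions depend on this. Of the named probes, 2119 passed the filter on both arrays, 344 were well above background at 24 h only, 1115 at 96 h only and 359 on neither. The coordinates of the lists were read as GRCm38, since 1579 of 1596 transcripts with a RefSeq gene of the same symbol and chromosome overlapped that gene there (98.9%). Of the defining markers set out for the cell types, 1 of 10 for osteoclasts (Mmp9) and 1 of 5 for macrophages (Irf8) had a named probe, so the labels could not be checked against most of them. Mmp9 was highest at 0 h, with 8.90 against 8.06 at 96 h. Irf8 was highest at 72 h, with 11.05 against 9.18 at 0 h and 9.27 at 96 h. Mmp9 was named by the list of transcripts lower at 24 h than at 0 h, and Irf8 by that of transcripts higher at 72 h. Their order over the arrays was thus fixed in part, so they cannot serve to check the labels. The paper describes the stages by TRAP staining, cell fusion and pit formation. Exon sense-overlapping transcripts share sequence with the coding RNA of their gene, and both cannot be told apart on the array. A name from such a probe therefore stands for the locus.

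Probes are 60 bases long, and those of 9 intergenic, antisense and bidirectional transcripts with large differences described next are shown as examples, with stronger ones left out. The 3 probes of D430036J16Rik share 53 of 60 bases and thus measure nearly the same stretch, with capitals at the 7 positions where they differ. The others carry no capitals, since none of their bases is singled out.
D430036J16Rik, NR_040393: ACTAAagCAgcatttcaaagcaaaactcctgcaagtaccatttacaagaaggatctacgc
D430036J16Rik, NR_040394: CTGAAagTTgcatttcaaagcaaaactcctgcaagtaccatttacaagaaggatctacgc
D430036J16Rik, NR_040395: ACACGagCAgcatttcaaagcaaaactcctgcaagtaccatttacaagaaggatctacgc
AW011738, NR_030671: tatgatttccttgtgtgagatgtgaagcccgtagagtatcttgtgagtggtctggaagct
AK046587: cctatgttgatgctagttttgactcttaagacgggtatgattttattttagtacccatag
Gm15471, ENSMUST00000149374: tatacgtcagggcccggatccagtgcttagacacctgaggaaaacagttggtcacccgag
AK044014: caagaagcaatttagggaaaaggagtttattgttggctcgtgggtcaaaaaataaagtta
AK027975: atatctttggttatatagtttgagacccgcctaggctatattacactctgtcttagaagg
2610203C20Rik, ENSMUST00000180535: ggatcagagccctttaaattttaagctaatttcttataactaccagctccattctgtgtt
AK158719: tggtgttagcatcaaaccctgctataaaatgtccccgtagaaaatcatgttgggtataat
Airn, NR_002853: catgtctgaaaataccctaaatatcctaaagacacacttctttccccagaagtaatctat

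D430036J16Rik is a natural antisense lncRNA at chr9:81631929-81645156, plus strand, which overlaps Htr1b, a serotonin receptor gene. Its 3 probes read 9.52 to 9.81 at 0 h, 10.35 to 10.59 at 24 h, 10.69 to 11.12 at 72 h and 5.97 to 6.15 at 96 h. The 96 h array thus stood below the other arrays for each probe, and the differences from 24 h were -4.49, -4.44 and -4.38, or 20.8-fold to 22.5-fold. Another antisense transcript, Gm15471 at chr3:103803128-103808438, which overlaps the DNA repair gene Dclre1b, read 11.63, 12.84, 11.35 and 7.86 at 0, 24, 72 and 96 h. Its difference of -4.98 came with the highest value at 24 h and the lowest at 96 h. Gm15471 was listed as higher at 24 h than at 0 h and chosen for a fall. Its 24 h value above those of 0 h and 96 h thus follows from the choice.

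AW011738, classed as intergenic, lies at chr4:156203283-156206028, where RefSeq also has Perm1, and read 7.91, 9.03, 9.04 and 4.89 over the course, a difference of -4.14. Of the coding genes that it does not overlap, the nearest is Isg15, an interferon-induced ubiquitin-like protein, 2465 bases away. V00821, from the immunoglobulin heavy chain locus at chr12:113418558-113421009, read 8.13, 8.75, 13.64 and 4.82, so its largest step lies between the 72 h and 96 h arrays and not between the arrays compared here. XLOC_000365, another intergenic transcript, read 4.66, 8.66, 6.0 and 4.76 and was not well above background at 0 h, a difference of -3.90. AW011738 and XLOC_000365 were listed as higher at 24 h and at 72 h than at 0 h, so those orders follow from the choice. The bidirectional Atad3aos, whose start lies 67 bases from Atad3a, a mitochondrial ATPase gene, had 2 probes with differences of -2.74 and -1.93.

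Some of the largest differences rest on a signal that 1 spot gave on 1 array. Dok7, an adaptor of the neuromuscular junction, had the largest named difference, -6.68, with 4.05, 11.53, 4.09 and 4.85 at 0, 24, 72 and 96 h. Its spot at 24 h was marked non-uniform by the scanner software, with a median signal of 239 intensity units against a processed signal of 2932. Of the 34984 probes, 7 had a spot marked as an outlier at 24 h or 96 h, and the named ones among them were Dok7 and Bhlhb9, at 0.79. The Arid1b transcript ENSMUST00000146703, from a chromatin remodelling gene, read 9.18, 13.96, 9.24 and 9.25, and its spot at 24 h, with no outlier mark of its own, had a local background marked non-uniform. Its difference of -4.71 is thus a high value at 24 h against 3 alike arrays. Dok7 and Arid1b were listed as higher at 24 h than at 0 h and chosen for a fall. Their 24 h values above those of 0 h and 96 h thus follow from the choice.

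**Figure D2:**
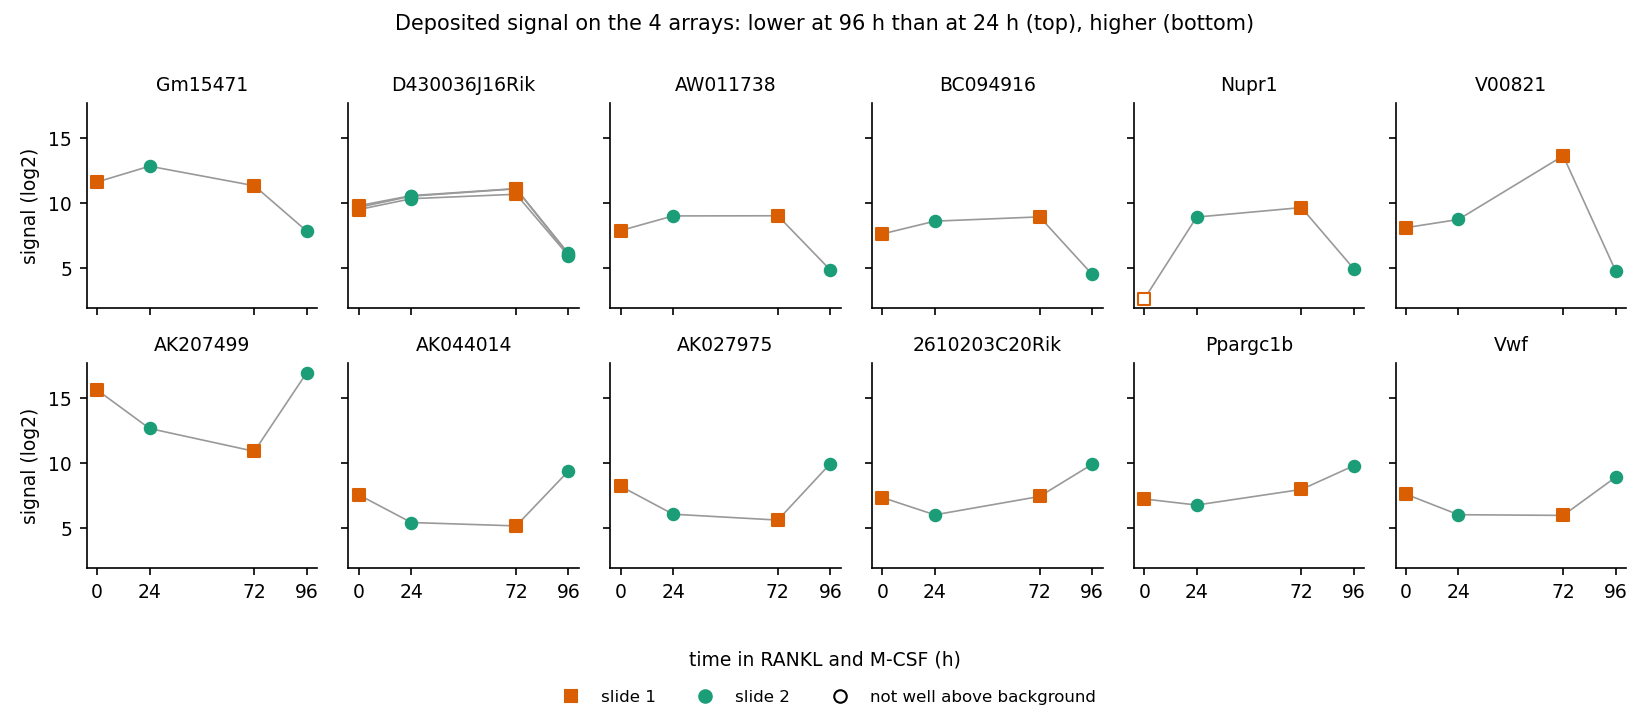
Deposited log2 signal (y axis) at 0, 24, 72 and 96 h (x axis) for 6 named transcripts lower at 96 h (top) and 6 higher (bottom), 1 point per array and probe; squares are slide 1, circles slide 2, and an open symbol was not well above background. The 3 lines of D430036J16Rik run together and end between 5.97 and 6.15 at 96 h; Ppargc1b and 2610203C20Rik are highest at 96 h.

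Among named probes the largest difference upward was that of AK207499, a short transcript of 174 bases within Cpe, the gene of carboxypeptidase E, which trims prohormones. It read 15.62, 12.67, 10.91 and 16.95 at 0, 24, 72 and 96 h, a difference of 4.28, and its probe is listed as also matching the Cpe coding RNA. The signal at 96 h thus stood above all other arrays and that at 24 h between those of 0 h and 72 h. AK044014 (chr9:120675535-120676271) followed the same order with 7.57, 5.45, 5.19 and 9.40, and AK027975 (chr12:85432759-85433580), whose nearest coding gene outside it is Fos, with 8.23, 6.09, 5.64 and 9.97. Their differences were 3.95 and 3.88. Both lay at 24 h and 72 h below their level at 0 h and were highest at 96 h.

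The intergenic 2610203C20Rik transcript ENSMUST00000180535 lies at chr9:41614236-41617772 within Mir100hg, the host gene of a microRNA cluster. It read 7.37, 6.04, 7.45 and 9.91, a difference of 3.87. Ppargc1b, which codes for a coactivator that drives mitochondrial biogenesis in osteoclasts, had a noncoding transcript that read 7.26, 6.79, 7.99 and 9.81, a difference of 3.02 (8.09-fold). These were again highest at 96 h, and 24 h was the lowest of the arrays. AK207499, AK044014, AK027975 and these were all listed as higher at 96 h than at 0 h and chosen for a rise from 24 h. Their 96 h value above those of 0 h and 24 h thus follows from the choice. The 2610203C20Rik transcript was also listed as lower at 24 h than at 0 h. The olfactory receptor pseudogene Olfr260-ps1 had a difference of 3.28, Vwf, the clotting factor carrier, 2.88, and St6gal1, a sialyltransferase of glycoproteins, 2.75. Slc22a30, of an organic anion transporter family, and AK158719, bidirectional to Efhd2 at a distance of 789 bases, followed with 2.73 and 2.71. For these last 2, listed as lower than 0 h at 24 h, the signal went from 9.67 to 12.40 and from 10.45 to 13.17, against 11.46 and 12.61 at 0 h.

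The list that named a probe fixed much of its direction. Probes listed only as higher at 24 h than at 0 h were chosen with the 24 h array, and of 355 that passed 126 were past 2-fold lower and 0 higher. Probes listed only as higher at 96 h than at 0 h were chosen with the 96 h array, and of 478 that passed 234 were past 2-fold higher and 0 lower. These counts follow from the choice and say nothing of the transcripts, and the gene lists given later hold such probes too, so their directions are fixed in part. Of all named probes that passed, 291 (13.7%) were past 2-fold higher and 299 (14.1%) lower. The list of transcripts higher at 72 h than at 0 h used neither array compared here. Of its 780 probes that passed, 146 (18.7%) were past 2-fold lower in activated osteoclasts and 27 (3.46%) higher, against 5.9% and 5.05% of all probes, with a median difference of -0.27.

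Within that 72 h list the lower signal at 96 h did not belong to one class of lncRNA. Past 2-fold lower were 18 of 94 bidirectional probes (19.1%), 38 of 209 exon sense-overlapping (18.2%), 53 of 297 intergenic (17.8%), 4 of 17 intron sense-overlapping (23.5%), 11 of 49 intronic antisense (22.4%) and 22 of 114 natural antisense (19.3%). The median differences of the classes lay between -0.38 and -0.23. Exon sense-overlapping probes held 13 of the 27 higher probes (6.22% of that class), while the other classes lay between 0 and 3.03%. Split into low, middle and high parts by the GC content of the probe, that list had medians of -0.30, -0.24 and -0.28, and by transcript length -0.26, -0.30 and -0.26. By signal at 24 h the dimmest part held 14 lower probes of 260, and the middle and brightest parts 64 and 68 of 260 each. The dimmest part read 5.22 to 6.27 at 24 h, and the lowest signal well above background at 96 h was 4.41. The filter on both arrays thus left little room for a fall there, so these parts are not compared.

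**Figure D3:**
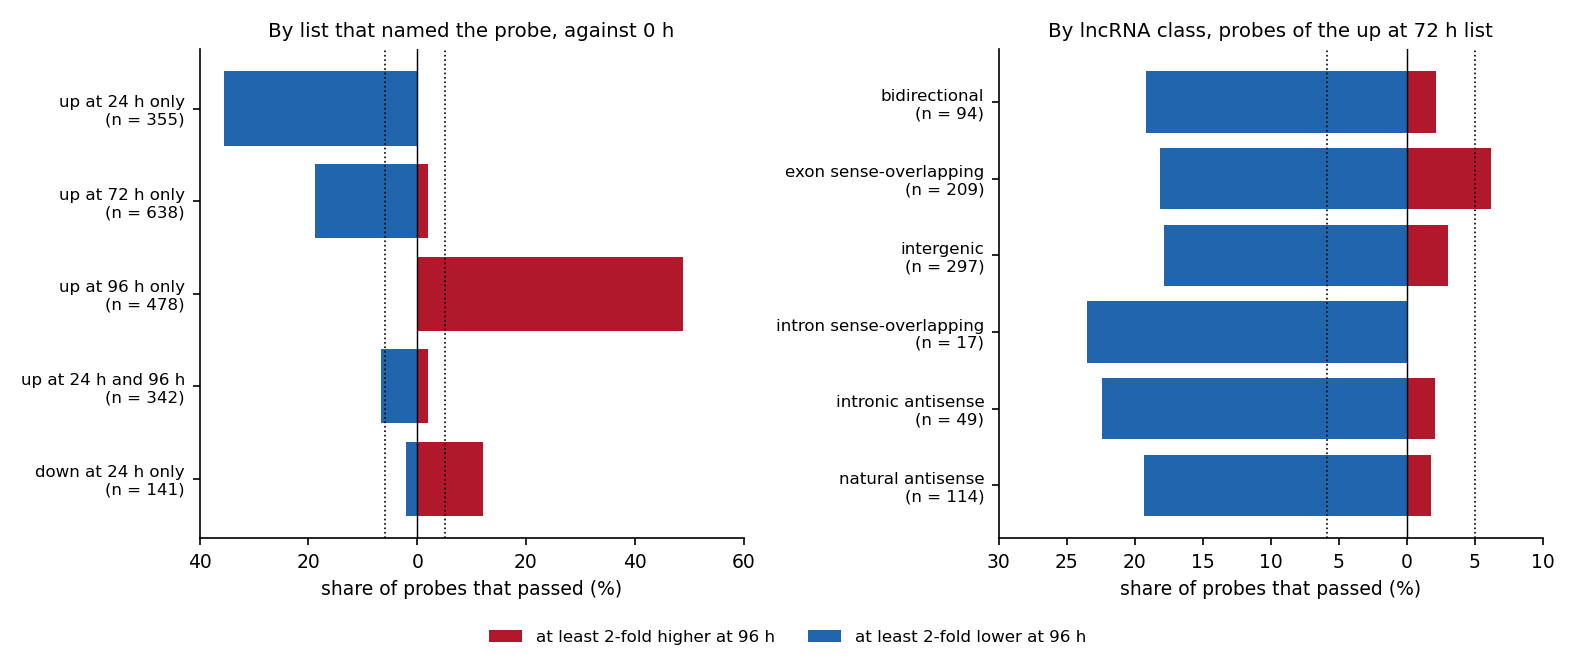
Share of named probes that passed the filter (x axis, percent) at least 2-fold higher (red, to the right) or lower (blue, to the left) in activated osteoclasts, by the list that named them (left) and, for probes of the list higher at 72 h, by lncRNA class (right); dotted lines mark the shares over all probes, 5.05% and 5.9%. All 6 classes on the right pass the dotted line on the lower side.

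Of 32 interferon-induced genes set out as a list, 11 had a named probe and 9 passed on both arrays, of which 5 were past 2-fold lower and 1 higher, with a median difference of -1.38 against -0.02 over all probes, of which 5.9% were lower and 5.05% higher. Of the 7 that the 72 h list named, 5 were lower and 0 higher, beside 18.7% and 3.46% of that whole list. Their median was -1.68, beside -0.27 over that list. The interferon list, like the others, was set out with earlier results of these data known. Ifi44, a protein induced by type I interferon, read 13.80, 14.62, 15.19 and 10.87 at 0, 24, 72 and 96 h, a difference of -3.75 (13.5-fold). Oas1g, of the oligoadenylate synthetase family that senses viral RNA, read 7.20, 8.04, 8.75 and 4.61, a difference of -3.43. Both were lowest at 96 h by a wide margin, with 0 h the next lowest array. Ifi203 and the transcript listed as Mnda, which overlaps Mndal and Ifi211, belong to a family of DNA sensors and had differences of -2.01 and -1.38. H2-T23, a nonclassical class I antigen, had -1.68. Oasl1, a relative of Oas1g, read 7.39 at 24 h and 8.40 at 96 h, a difference of 1.01 that was 0.97 with cyclic loess and 0.79 with normexp. It was named by the list of transcripts higher at 96 h than at 0 h, so its rise was fixed in part. Sp110, Gbp3 and Tmem140 had -0.29, 0.15 and 0.25.

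BC094916, not on that list, overlaps Ifi214 of the same DNA sensor family and read 7.65, 8.63, 8.96 and 4.55, a difference of -4.07. It lies at chr1:173521310-173535957, in the region of chromosome 1 that also holds Mnda and Ifi203. AK046587 (chr7:105885295-105886866) read 8.09, 8.60, 10.35 and 4.95, a difference of -3.66. Together with Gm15645 and Gm17757 it made up a stretch from 105861780 to 105928691 in which all 3 named transcripts were past 2-fold lower, the smallest difference being -2.47. The highest array was that of 72 h for BC094916 and AK046587 and the lowest that of 96 h.

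The promoters of interferon-induced genes were searched for a pair of GAAA with any 2 bases between, a pattern of the element that interferon-activated factors bind, on both strands of the 300 bases that RefSeq's start sites give (250 before and 50 after, GRCm38.p6). Of the 9 genes of the list that passed, 6 held it in at least 1 promoter, against 3.99% of 27025 genes. Among the 5 lower genes 4 held it, and of the other 4 genes Gbp3 and Tmem140. Ifi44 had no match in this window. Capitals mark the matches in these examples, chosen because Oas1g and Ifi203 are among the lower genes. In Oas1g, matches starting 18 and 12 bases before the start overlap, and that of Ifi203 starts 35 bases before it. The named transcripts need not begin at these starts. In the 2 labels that follow, chr5.0 is chromosome 5 and chr1.0 is chromosome 1.
Oas1g promoter, chr5.0:120887564-120887863, minus strand: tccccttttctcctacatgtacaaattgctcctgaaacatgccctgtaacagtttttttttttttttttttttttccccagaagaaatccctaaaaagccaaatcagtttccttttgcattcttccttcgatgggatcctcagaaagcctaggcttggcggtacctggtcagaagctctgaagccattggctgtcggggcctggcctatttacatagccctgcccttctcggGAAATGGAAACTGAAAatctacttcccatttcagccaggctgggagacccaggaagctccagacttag
Ifi203 promoter, chr1.0:173942443-173942742, minus strand: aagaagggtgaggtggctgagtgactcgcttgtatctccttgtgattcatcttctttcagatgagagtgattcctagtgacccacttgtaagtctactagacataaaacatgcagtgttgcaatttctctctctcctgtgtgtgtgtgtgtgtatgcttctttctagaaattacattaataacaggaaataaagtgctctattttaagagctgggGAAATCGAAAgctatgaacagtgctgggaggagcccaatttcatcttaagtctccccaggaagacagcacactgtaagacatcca

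Genes of amino acid supply and the integrated stress response, which cells switch on when amino acids run short or unfolded protein builds up, numbered 40 on the list, with 21 named and 15 that passed. Past 2-fold, 4 were lower and 1 higher, and the median difference was -0.48, against 5.9% and 5.05% of all probes. The 72 h list named 12 of the 15, among them all of those past 2-fold, and 18.7% of that list was lower. Nupr1, a stress-induced chromatin protein, was not well above background at 0 h (2.65) and read 8.94 at 24 h, 9.67 at 72 h and 4.97 at 96 h, a difference of -3.97 (15.7-fold). Stc2, a secreted glycoprotein of the same response, read 11.97, 12.79, 13.93 and 10.66, a difference of -2.12. The transfer RNA synthetase genes Cars and Mars had -1.73 and -1.51. For these 4 genes 72 h was the highest array and, except for Nupr1, 96 h the lowest.

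Atf3, a transcription factor of the same response, read 7.66, 7.38, 10.11 and 8.68, a difference of 1.30, with 72 h again the highest. Within 2-fold lay 10 genes, such as Ppp1r15a, which removes the stress mark from the translation factor eIF2, with -0.91, the synthetase Yars with -0.24, the folate enzyme Mthfd2 with 0.32 and Slc3a2, a subunit of amino acid exchangers, with 0.71. Slc38a7, a glutamine carrier of the lysosome, was well above background at 96 h and not at 24 h, at least 11.8-fold higher. Mthfd1l was well above background at 24 h and not at 96 h, at least 3.08-fold lower.

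The motif TGATGNAA, a pattern found in amino acid response elements, was searched on both strands of the same 300 bases. Of 12 genes of the list with a promoter in the table, 5 held it (4.51% of all genes did), of which 1 was past 2-fold lower, Nupr1. The other 4 were Atf3, Herpud1, Slc7a11 and Yars. The promoters of Nupr1 and Atf3 are shown because both hold a match, in capitals and on the opposite strand, starting 110 bases before the start, while their differences have opposite signs. In their labels, chr7.0 is chromosome 7 and chr1.0 is chromosome 1.
Nupr1 promoter, chr7.0:126625421-126625720, minus strand: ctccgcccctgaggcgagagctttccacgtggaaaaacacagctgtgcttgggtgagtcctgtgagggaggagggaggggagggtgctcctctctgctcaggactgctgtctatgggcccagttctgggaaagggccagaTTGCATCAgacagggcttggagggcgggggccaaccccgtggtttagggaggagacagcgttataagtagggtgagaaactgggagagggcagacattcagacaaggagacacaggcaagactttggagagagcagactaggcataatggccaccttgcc
Atf3 promoter, chr1.0:191183284-191183583, minus strand: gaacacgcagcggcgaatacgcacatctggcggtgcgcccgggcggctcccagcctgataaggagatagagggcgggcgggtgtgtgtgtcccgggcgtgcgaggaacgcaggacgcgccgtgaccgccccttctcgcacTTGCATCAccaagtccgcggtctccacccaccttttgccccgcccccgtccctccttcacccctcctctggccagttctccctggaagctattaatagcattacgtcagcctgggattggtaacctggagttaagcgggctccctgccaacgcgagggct

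Genes of osteoclast formation and bone resorption numbered 36, of which 10 had a named probe and 7 passed. Past 2-fold, 2 were higher and 1 lower, against 5.05% and 5.9% of all probes. These 3 were named by lists chosen with the compared arrays, and of the 2 members that the 72 h list named, 0 were past 2-fold. Beside Ppargc1b, given above, Atp6v0a4, a subunit of the proton pump, read 7.24, 6.87, 7.30 and 8.27, a difference of 1.39. Stim1, the calcium sensor of the endoplasmic reticulum, read 7.99, 9.13, 8.51 and 8.0, a difference of -1.13. Its 96 h value thus lay at the 0 h level. With normexp both were within 2-fold, at 0.97 and -0.96. Mmp9, a protease that osteoclasts secrete, read 8.90, 7.42, 6.35 and 8.06, a difference of 0.64 that stayed within 2-fold, with 0 h the highest array. The sodium proton exchanger Slc9b2 had -0.65, the kinase Map3k8 -0.61 and the exchange factor Vav1 -0.14.

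Genes listed as negative regulators of osteoclast formation split. Of 15 genes, 9 were named and 6 passed, with 2 higher and 2 lower, against 5.05% and 5.9% of all probes and 3.46% and 18.7% of the 72 h list. The transcript listed as IkappaB-zeta, from Nfkbiz, an inducible regulator of NF-kappaB, read 8.58, 9.47, 9.97 and 5.86, a difference of -3.61. Bcl6, a transcriptional repressor, read 7.76, 8.50, 9.40 and 6.55, a difference of -1.95. The 2 higher ones were receptor genes. Lair1, an inhibitory receptor, read 6.78, 6.14, 7.99 and 7.77, a difference of 1.63. The transcript listed as Gp49a read 9.82, 9.37, 11.55 and 10.98, a difference of 1.61. It overlaps Lilr4b, beside the separate gene Lilrb4a, and whether its product restrains osteoclast formation was not tested. Irf8, a transcription factor of macrophages that restrains osteoclast genes, read 9.18, 9.53, 11.05 and 9.27, a difference of -0.26. The paper reports lower Irf8 during osteoclast formation by qPCR. Socs3, which dampens cytokine signals, had 0.55. Il4i1 was well above background at 96 h only, at least 3.30-fold higher. All 4 of those past 2-fold were named by the 72 h list.

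Of 42 macrophage surface, chemokine and inflammatory genes, 31 were named and 18 passed, with 3 higher and 2 lower, against 13.7% and 14.1% of all named probes and 5.05% and 5.9% of all probes. Among the 13 that the 72 h list named, 1 was higher and 2 lower. Clec12a, an inhibitory C-type lectin, read 8.70, 8.40, 9.72 and 10.05, a difference of 1.65, and the signal at 96 h was the highest of the series. Ltbr, the lymphotoxin beta receptor, and Pla2g7, which inactivates platelet activating factor, had 1.05 and 1.07, both within 2-fold with cyclic loess and normexp. Cd52, a small surface glycoprotein, read 7.57, 7.33, 9.17 and 5.53, a difference of -1.81, and the immunoglobulin-like receptor Milr1 had -1.54. The bright members Ccl4, a chemokine, and Ms4a6d had -0.38 and 0.19, Dpep2, a membrane dipeptidase, 0.22, and Fyb, an adaptor, 0.85. H2-Eb1, of class II antigen presentation, was well above background at 0 h and 96 h but not at 24 h or 72 h, and was at least 4.87-fold higher at 96 h than at 24 h.

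The lysosome list had 37 genes, 19 named and 10 that passed, with 3 higher and 1 lower, against 5.05% and 5.9% of all probes. These 4 were named by lists chosen with the compared arrays, and of the 2 that the 72 h list named 0 were past 2-fold. Sgsh, which breaks down heparan sulfate, read 10.20, 9.68, 9.56 and 11.31, a difference of 1.63. A transcript listed under Dnase2a, the lysosomal nuclease, and lying 1687 bases from it antisense to Mast1, had 1.1, and Atp6v0a4 is also on this list. Slc15a3, a peptide and histidine carrier of the lysosome, read 8.22, 9.47, 8.40 and 7.47, a difference of -2.0. Lamtor4, of the complex that ties nutrient sensing to the lysosome, had 0.92, the protease Ctsc 0.15, and Hps1 and Hps3, of organelle biogenesis, 0.52 and 0.56.

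Iron handling had 14 genes, 7 named and 4 that passed, with 2 higher and 1 lower (5.05% and 5.9% of all probes). The subunits of ferritin, the iron store, were higher at 96 h than at 24 h. Fth1, the heavy chain, read 7.33, 6.86, 8.35 and 8.34, a difference of 1.48, and Ftl1, the light chain, 15.46, 13.29, 14.37 and 14.34, a difference of 1.06. For both the 24 h array was the lowest. Ftl1 was named by the list of transcripts lower at 24 h than at 0 h, so its rise was fixed in part. Its 96 h value lay below that of 0 h, and its difference was within 2-fold at 0.91 with scaling to the 75th percentile. Of the 2 members that the 72 h list named, Fth1 was higher and Slc25a37 lower. The mitochondrial iron importer Slc25a37 had -1.45 and the plasma iron carrier Trf 0.27. Cp, which codes for ceruloplasmin, the copper oxidase that loads iron onto transferrin, read 10.78 at 72 h and was well above background at 24 h and not at 96 h, at least 3.66-fold lower.

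In the list of the actin cytoskeleton and adhesion, 15 of 31 genes passed, with 2 higher and 0 lower, against 5.05% and 5.9% of all probes. Both were named by the list chosen with the 96 h array, and of 4 members that the 72 h list named 0 were past 2-fold. Vim, the intermediate filament vimentin, read 8.80, 8.17, 7.63 and 10.20, a difference of 2.03, and Pstpip1, an adaptor that bends membranes at actin, 9.69, 8.96, 9.0 and 10.92, a difference of 1.95. The crosslinker Flna had 0.94, the sialomucin Podxl 0.67, the motor Myo1d 0.57 and Vasp, which extends filaments, -0.25. Cell division had 27 genes and 10 that passed, with 0 higher and 2 lower, the cohesin acetyltransferase Esco1 at -1.15 and Haus6, of the spindle augmin complex, at -1.04 (5.9% of all probes were lower). Both were named by the list chosen with the 24 h array and both were within 2-fold with normexp, at -0.78 and -0.43. The kinetochore protein Knstrn had -0.89, Sgol1, a guardian of cohesin, 0.11, Spdl1 0.12, and Tyms, which makes thymidylate, 0.41.

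In the mitochondrial list 14 of 23 genes passed, with 2 higher and 2 lower, against 13.7% and 14.1% of all named probes and 5.05% and 5.9% of all probes. Of the 6 that the 72 h list named, 0 were higher and 1 lower. Ppargc1b and Hsd17b10 were named by the list chosen with the 96 h array and Atpaf2 by that chosen with the 24 h array. Their directions were thus fixed in part. Apart from Ppargc1b, Hsd17b10, a dehydrogenase of the matrix, read 5.55, 5.58, 4.89 and 6.91, a difference of 1.33. Atpaf2, an assembly factor of ATP synthase, read 5.71, 8.28, 6.35 and 4.89, a difference of -3.39, so its 24 h value stood above the other arrays. The translation factor Guf1 had -1.23. Bright members stayed within 2-fold. Cytb, of the mitochondrial genome, read 16.28 at 24 h and 16.46 at 96 h, Stoml2 had a difference of 0.04, Mrpl17, of the mitochondrial ribosome, 0.53 and Atp5k, of ATP synthase, 0.74.

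**Figure D4:**
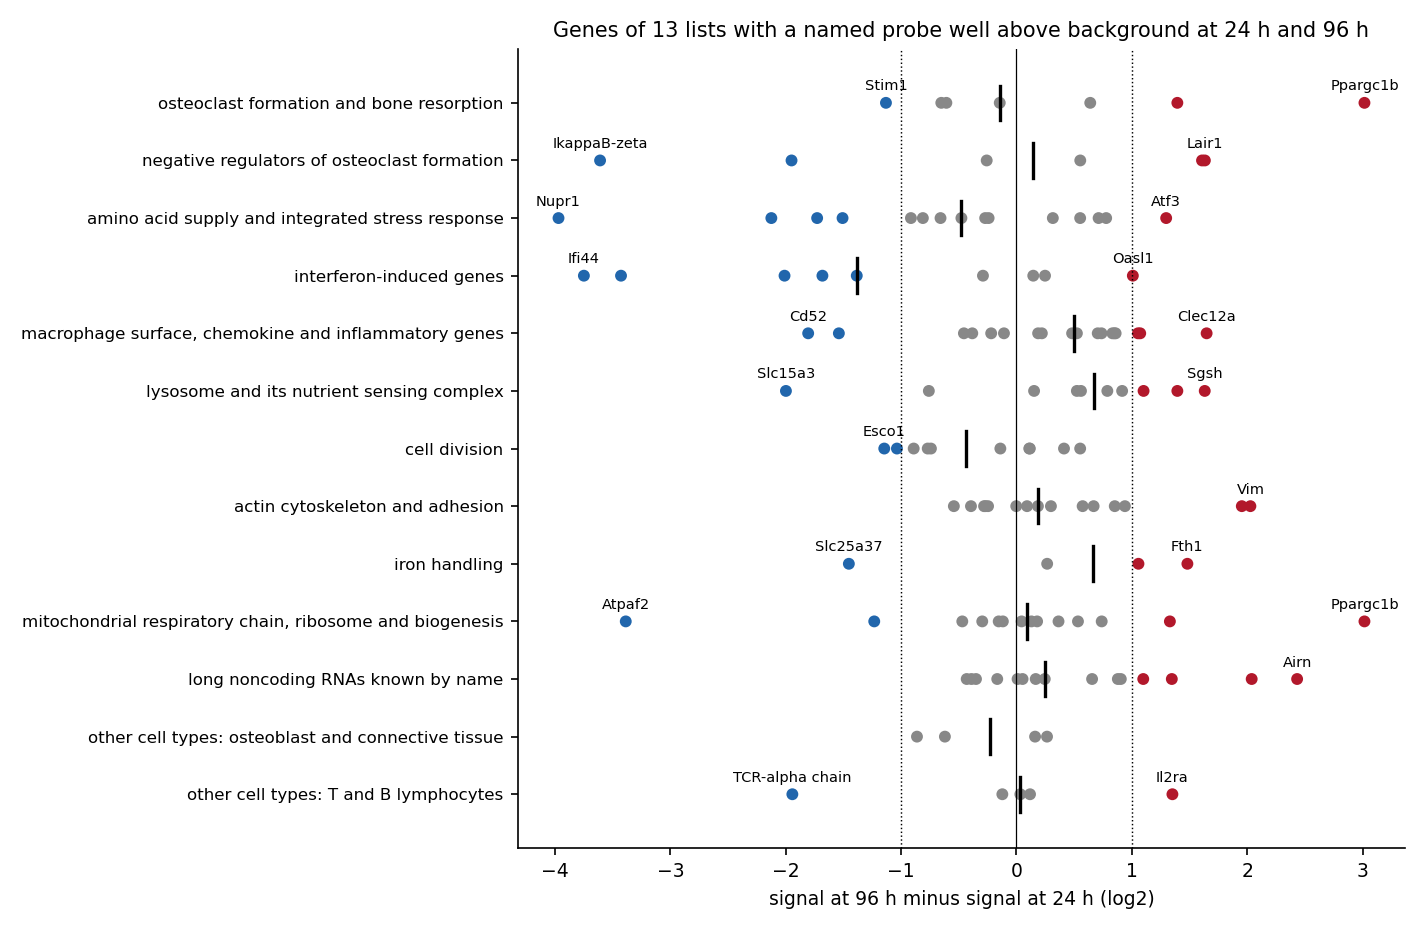
Difference between the 96 h and 24 h arrays (x axis, log2) of each gene with a named probe that passed, by list; 1 point per gene, red past 2-fold higher, blue past 2-fold lower, black bars the list medians, and dotted lines 2-fold. Most lists hold genes whose naming list fixed their direction, so medians are not compared between lists. On the lower side, 5 interferon-induced genes lie past 2-fold.

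Of 32 lncRNAs known by name, 22 had a named probe and 15 passed, with 4 higher and 0 lower. The shares were 13.7% and 14.1% of all named probes and 5.05% and 5.9% of all probes. Of the 9 that the 72 h list named, 1 was higher. Airn, Vaultrc5 and the higher Six3os1 probe were named by the list chosen with the 96 h array. Their 96 h values above 0 h follow from that choice, and their rises were fixed in part. Airn, the antisense RNA that silences Igf2r on 1 parental chromosome, read 10.88, 9.84, 9.56 and 12.27 at 0, 24, 72 and 96 h, a difference of 2.43 (5.40-fold), highest at 96 h. Vaultrc5, the RNA of the vault particle, had 2.04 with the same order of arrays, 9.13, 8.28, 7.98 and 10.32. Six3os1 had 1 probe at 1.1 and another at -0.46. The small nucleolar RNA hosts Snhg1 and Snhg12 had -0.17 and 0.17, Mkln1os 0.05 and U90926 0.66. Sox2ot and Mirg were well above background at 96 h only, at least 4.71-fold and 3.96-fold higher.

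Named transcripts that span a microRNA gene numbered 53, of which 36 passed, with 8 past 2-fold higher and 3 lower, against 13.7% and 14.1% of all named probes and 5.05% and 5.9% of all probes. Of the 14 that the 72 h list named, 2 were higher and 1 lower. Dleu2, host of the tumour suppressor microRNAs miR-15a and miR-16, read 10.60, 11.26, 11.99 and 12.61, a difference of 1.35, and each later array was higher than the one before. The transcript of Ppargc1b named above spans Mir378a. The lower ones were in Akt1s1 (Mir707), Cars (Mir7064) and Cpne7 (Mir7080), with -2.07, -1.73 and -1.16. The mature microRNAs were not measured by these probes. The sequences of the Dleu2 pair are given from RefSeq because both share 1 seed, bases 2 to 8, in capitals, and so can pair with the same sites.
mmu-miR-15a-5p: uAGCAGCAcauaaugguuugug
mmu-miR-16-5p: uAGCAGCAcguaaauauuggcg

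The array also holds genes that a macrophage line is not expected to use. Of 12 osteoblast and connective tissue genes, 4 passed and none was past 2-fold, beside 5.05% higher and 5.9% lower of all probes. Runx2, the master factor of osteoblasts, read 6.09 at 24 h and 5.47 at 96 h, and Col1a1, a collagen chain, 6.57 and 6.73. Fbln2 and Mmp11 had differences of 0.27 and -0.86. Of 17 lymphocyte genes, 5 passed, with 1 higher and 1 lower, beside the same shares. These were Il2ra, the interleukin receptor chain, at 1.35 and the transcript listed as TCR-alpha chain at -1.94. Il2ra was named by the list lower at 24 h than at 0 h and TCR-alpha chain by the list higher at 24 h. Both directions were thus fixed in part, and with normexp both were within 2-fold, at 0.87 and -0.90. The brightest T cell receptor probes, listed as TCRA, TCR-beta chain and TCRB, had 0.12, 0.03 and -0.12. Pax5, which defines B cells, Cd28 of T cells and Sparc, a matrix protein, were well above background at 96 h only, with 4.98, 4.87 and 5.19. The lowest signal well above background was 4.41 at 96 h and 5.17 at 24 h. These values lie near or below that of 24 h, so the calls do not show a gain.

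Of 10 lncRNAs for which the study lists PCR primers, 5 had a named probe and 4 passed. AK133148 read 2.65, 7.61, 8.07 and 7.69, A330076H08Rik 2.65, 7.20, 7.65 and 6.80, and Vmn1r-ps29 2.65, 6.91, 7.70 and 6.63. The 3 were not well above background at 0 h, and their differences between 96 h and 24 h of 0.08, -0.40 and -0.27 stayed within 2-fold. Lgi1 read 3.32, 6.32, 5.56 and 7.76, a difference of 1.44. ENSMUST00000181495, listed under 4732487G21Rik, was well above background only at 96 h, with 6.77.

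Genes with several named probes that passed numbered 27. Within a gene the differences spread over a median of 0.81, and 15 of the 27 genes had a spread under 1. Of 12 genes with any probe past 2-fold, 4 had every probe past 2-fold (Atad3aos, D430036J16Rik, Gm14005 and Gpr137b-ps), and no gene had probes past 2-fold in both directions. The largest spread was that of Gm16136, with -0.76 and 1.53. BC038927, with 4 probes that are listed as also matching each other's transcripts, ranged from -0.51 to -0.24, Gm16026 from -1.46 to -0.81, and TCRA from 0.07 to 0.37. In 1810062O18Rik and BC006965, with 3 probes each, the signs differed between probes, from -0.13 to 1.57 and from -0.62 to 1.04.

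Among probes that the 72 h list alone named, the 5 genes with the lowest differences were D430036J16Rik, BC094916, V00821, Ifi44 and AK046587, described above. The 5 highest were Clec12a, Lair1, AK157381, Gp49a and Fth1, between 1.48 and 1.65. AK157381, intronic antisense to Rapgef6, read 9.84, 9.28, 11.69 and 10.89, a difference of 1.61. In each of these 5, 24 h was the lowest array and 72 h was above 0 h, as the list requires. In the smaller classes, the intron sense-overlapping transcripts ranged from AK087292, within Pde4d, at -2.0 to Mir691, within Robo2, at 1.95. Among the intronic antisense ones AK089651, in Hibadh, lay lowest at -3.35, and among the natural antisense ones AK134688, in Gfm2, highest at 2.63.

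Named probes well above background on 1 of the 2 arrays give a bound only, with the dim array set to its own value or to the lowest signal well above background there, whichever was higher. At least 2-fold lower by this bound were 305 of the 344 found at 24 h only, and at least 2-fold higher 157 of the 1115 found at 96 h only. The lowest signal well above background was 5.17 at 24 h and 4.41 at 96 h, so these counts met unequal floors and are not compared. The largest bound was that of the intergenic Gm12665, with 2.62, 17.46, 2.67 and 2.66 at 0, 24, 72 and 96 h, at least 8476-fold lower at 96 h. Next to it at 24 h only came Gper1, an oestrogen receptor of the membrane, at least 19.4-fold lower. At 96 h only, the antisense Mtag2 read 15.25 against 3.94 at 24 h, at least 1087-fold higher, followed by the intergenic Gm5532 at 20.4-fold, the farnesyltransferase subunit Fntb at 12.9-fold and the chromatin remodeller Baz1b at 12-fold. The spot of Mtag2 at 96 h was marked non-uniform, and that of Gm12665 at 24 h carried no mark. Each of these probes was printed once.

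Named transcripts past 2-fold that lay within 100 kb of each other made up 32 loci of at least 2 genes. In 11 all were lower, in 8 all were higher and in 13 both directions occurred. Lower throughout were, beside the locus of AK046587, Mnda with Ifi203 on chromosome 1, Cd52 with Ubxn11 on chromosome 4 (-1.81 and -1.11), and Atad3aos with 2610204G22Rik. Fth1 with Rab3il1 on chromosome 19 was higher throughout, with 1.48 and 1.69, as was Lair1 with AK006659 on chromosome 7, with 1.63 and 1.04. In Stap1 and its neighbours AK153607 and AK041459 on chromosome 5 both directions occurred, from -1.27 to 1.03.

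The other arrays place these differences in the time course. Among 32668 probes well above background on all 4 arrays, 1657 were past 2-fold higher at 96 h than at 24 h, with median signals of 8.51, 7.84, 8.15 and 9.47 at 0, 24, 72 and 96 h. The 1894 lower ones had medians of 8.30, 8.77, 8.54 and 7.26. At 0 h, 1432 higher and 1656 lower ones lay between their 24 h and 96 h values, and 72.9% and 70.7% were nearer to the 24 h value. The 96 h array was at least 2-fold apart from each of the other 3 arrays for 590 of the higher probes (35.6%) and 644 of the lower ones (34.0%), and the 24 h array for 130 (7.85%) and 98 (5.17%). At 72 h, 674 of the lower probes lay above both compared arrays and 536 of the higher ones below both.

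The comparison of 72 h with 0 h shares no array with that of 96 h and 24 h, and each lies within 1 slide. On slide 1, 1327 of 34683 probes (3.83%) had a signal past 2-fold higher in mature osteoclasts than in monocytes and 1618 (4.67%) one past 2-fold lower. Of the 1894 probes lower at 96 h than at 24 h, 253 (13.4%) were past 2-fold higher and 59 (3.12%) lower in that other comparison, against 3.61% and 4.69% of all 32668 probes. Of the 1657 higher at 96 h, 258 (15.6%) were lower and 48 (2.90%) higher. Across the 32668 probes, which share libraries and are not independent, Pearson's r of both sets of differences was -0.24 and Spearman's rho -0.18. Ifi44, Stc2 and V00821 are of the former kind and Vwf and AK207499 of the latter.

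**Figure D5:**
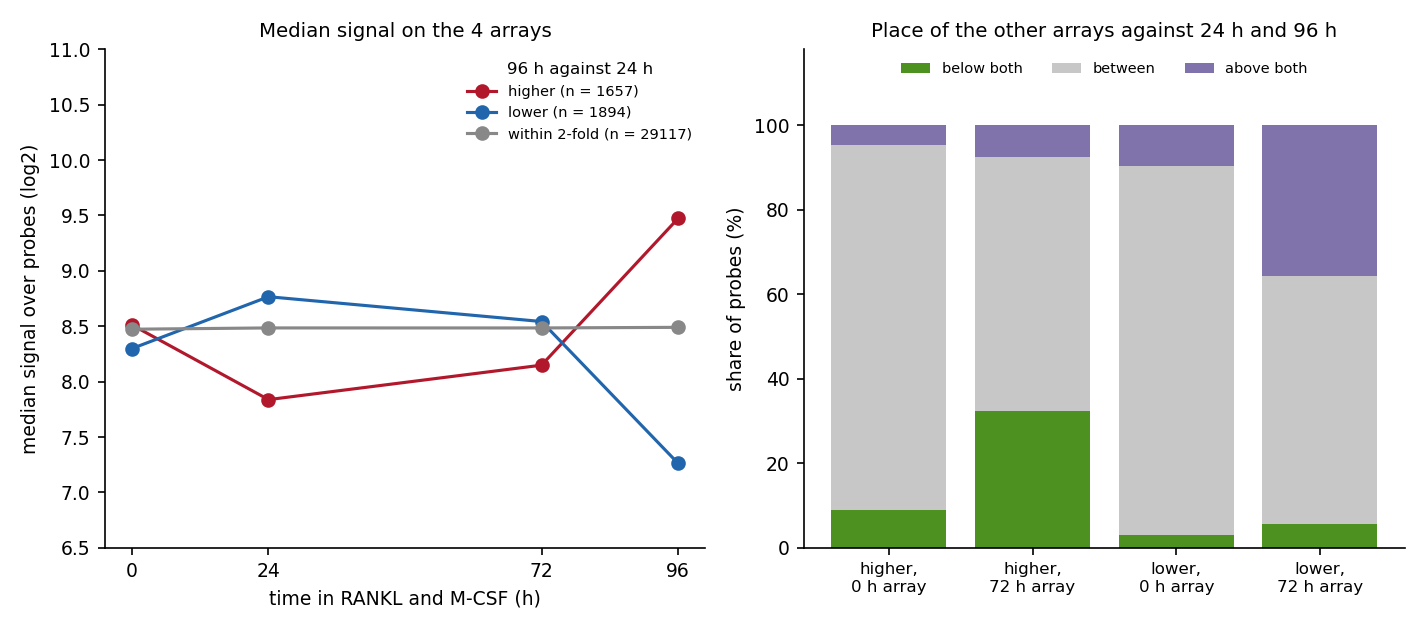
Left, median deposited log2 signal (y axis) at 0, 24, 72 and 96 h (x axis) of probes at least 2-fold higher, lower or within 2-fold at 96 h against 24 h, among probes well above background on all 4 arrays. Right, share of the higher and lower probes (y axis, percent) whose value on the 0 h or 72 h array lay below, between or above those at 24 h and 96 h; 674 of the 1894 lower probes lie above both at 72 h.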

How the data were processed

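Total RNA of RAW264.7 cells was hybridised by the authors to 1-colour Agilent arrays of mouse lncRNAs and coding RNAs, 1 array per time point. The scanner intensity of each spot came from Agilent Feature Extraction 11.0.1.1, per the file headers. The deposited log2 values were quantile normalized by the authors in GeneSpring, and the difference between 96 h and 24 h was taken from them for probes well above background on both arrays. Quantile normalization gives all arrays the same distribution, so a shift of all probes cannot be seen. Intensities carry no counts, so precision is set by how many arrays there are. Names, positions and classes came from the study's lncRNA lists by probe name, and their fold columns were not used. Python 3.11.15, pandas 2.3.3, numpy 2.4.6, R 4.3.3 and limma 3.58.1 were used.

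With 1 array per time point no test was possible, and 2-fold was used as a limit of size. The text names the 10 named genes lowest and highest, the 5 lowest and highest of the 72 h lists only, the extremes of each class, genes with 3 or more probes, the lncRNAs with PCR primers and, for each of 13 gene lists, members past 2-fold and the 4 brightest others. Other names, among them several probes detected on 1 array, loci and microRNA hosts, were chosen after their values were seen. The members and gene lists were chosen with earlier results of these data known. The counting was checked on data simulated from the 24 h array, which hold no variation between cultures and so give no rate of false calls. Other normalizations, background corrections, filters and fold limits were tried.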

Additional observations from a re-analysis of the deposited data

Results flagged for a closer look

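The deposited table leaves out 96 probes that the scanner files hold once on each array. Of these, 74 were well above background at both 24 h and 96 h, which is signal outside the values compared above. With their processed signals placed on the scale of the deposited values, 2 of the 74 were at least 2-fold higher at 96 h than at 24 h and 1 was at least 2-fold lower, with a median difference of -0.23 on the log2 scale. They carry no name in the sources used here.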

How the results depend on the processing

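No paired analysis was possible because each time point has 1 array, and for the same reason no array could be left out. Under the choices tried, the counts of 1765 higher and 2063 lower probes, of 291 and 299 named probes and of 23 and 21 list members stayed within 1.5 times with the spots' own quantile normalization, scaling to the 75th percentile or the median, cyclic loess, probes well above background on all 4 arrays, and outlier spots left out. The share of higher probes among those past 2-fold, 46.1%, was 48.9% with scaling to the 75th percentile. With normexp and an offset of 50 there were 1062 higher and 1072 lower probes (49.8% higher), 158 and 137 named probes, and 15 and 13 list members. Well above background on at least 1 array, with a floor, gave 448 and 604 named probes and 32 lower list members. With probes positive and significant on both arrays there were 3020 and 3484 probes, 612 and 571 named ones, and 35 and 35 list members. Brighter probes, with a mean of both arrays at or above the median, gave 950 and 883, a share of 51.8% that turned the direction, 108 and 60 named probes, and 13 and 9 list members. No filter gave 4538 and 4212, 51.9%, again turned, 889 and 714 named probes, and 46 and 43 list members. A limit of 1.5-fold gave 4380 and 5002 probes, 517 and 525 named ones, and 40 and 32 list members. A limit of 4-fold gave 273 and 323, 49 and 75, and 5 and 7. Names from the 72 h lists alone gave 30 and 147 named probes. A filter or fold limit changes the counts by its own construction, and the cause of the other changes was not tested. The transcript of BC006965 with 1.04 had -0.33 as the median of the gene's probes. Of 73 named differences past 2-fold, 53 were past it under every alternative that changes single values (the scalings, normexp and the like, not the filters). The other 20, each within 2-fold under at least 1 scaling, normexp, cyclic loess or the median of the gene's probes, were Atp6v0a4, BC006965, Cars, Cd52, Dnase2a, Esco1, Ftl1, Gm16026, Guf1, Haus6, Hsd17b10, Il2ra, Lgi1, Ltbr, Oasl1, Pla2g7, Six3os1, Slc25a37, Stim1 and TCR-alpha chain. A signal near background limits dim probes most.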
